A study of Mus musculus with 18 samples.

Results

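Cassette exons are internal exons that a cell can keep in an mRNA or leave out, joining the exons on either side. An exon whose length is a multiple of 3 adds or removes whole codons without shifting the reading frame behind it, so that both forms can be translated into proteins that differ by an internal segment. Described here are 2028 such exons longer than 51 nt, in 1554 genes, out of 5236 cassette exons of all lengths. They were chosen from the GENCODE M21 annotation as internal exons that some transcripts hold and others skip between the same flanking splice sites. The percent spliced in (PSI) of an exon is the abundance of transcripts that hold it over that of transcripts that hold or skip it, in TPM, an abundance scaled to transcript length and library depth. Exons were kept with a mean total of at least 5 TPM over 18 libraries and a mean PSI from 2% to 98%.

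The libraries come from bone marrow of C57BL/6 mice in the study of PTBP1 in stem cells and red cell formation. All mice in the control groups carry Ptbp1 fl/fl, a Ptbp1 gene flanked by recombination sites, and are called WT here. The other mice are labelled as Ptbp1 KO. The sources used here do not name the Cre driver, the age of the mice or the deleted part of the gene. Each genotype was sorted by flow cytometry into hematopoietic stem cells (HSC: CD150+ and CD48- within the c-kit+ and Sca-1+ cells that are Lin-), preMegE and preCFU-E. Both progenitors were CD150+ within the c-kit+ cells that are Lin- and Sca-1-, with CD41- and FcgRII/III- as further limits. preMegE, which can form megakaryocytes or red cells, were CD105-, and preCFU-E, a later step towards red cells, were CD105+. That gives 6 groups of 3 libraries, with 15956408 to 29226287 estimated reads each. Nothing in the labels says whether libraries came from single or pooled animals.

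PTBP1 is an RNA-binding protein that attaches to stretches rich in pyrimidines (C and U) near alternative exons. It is best known for causing exons to be skipped, and it can also favour inclusion, depending on where it binds. Its paralogs PTBP2 and PTBP3 bind similar RNA. The targeted gene was low in every library labelled KO: the summed TPM of protein-coding Ptbp1 transcripts was 54.0, 65.3 and 58.4 in WT HSC and 8.13, 2.60 and 3.71 in KO HSC. It was 71.5, 128 and 123 in WT preMegE against 15, 11.8 and 4.79 in KO. In preCFU-E it was 131, 158 and 162 against 6.97, 14.4 and 8.50. Over all Ptbp1 transcripts, non-coding ones included, the difference was smaller: 145 to 209 TPM in WT HSC against 85.2 to 88.4 in KO, 327 to 597 against 78.1 to 95.9 in preMegE, and 636 to 758 against 83.6 to 104 in preCFU-E. Ptbp2 was higher in every KO library: 47.3 to 50.7 TPM in WT and 107 to 135 in KO HSC. In preMegE it was 16.6 to 18.8 against 48.8 to 59.4, and in preCFU-E 4.60 to 9.55 against 54.0 to 59.5. Ptbp3 overlapped in HSC and preMegE, and was 169 to 186 TPM in WT and 130 to 149 in KO preCFU-E. The part of the paralogs in the PSI changes below was not tested. In bulk RNA such as this, fewer cells of a type and less RNA per cell cannot be told apart.

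The exon sequences show what is gained or lost. Below are 7 exons that the results turn on, each as its transcript reads it from 5′ to 3′, with the cassette exon in capitals and 15 bases of the neighbouring exons in lower case, from GENCODE M21 transcripts (GRCm38). All of them lie in coding sequence and add no stop codon to the skipping transcript's frame. The first 4 rose in KO cells of at least 1 population, Tnrc6a rose in preCFU-E, and Ktn1 and Bod1l fell.
Reep6, chr10:80334713-80334793, plus strand: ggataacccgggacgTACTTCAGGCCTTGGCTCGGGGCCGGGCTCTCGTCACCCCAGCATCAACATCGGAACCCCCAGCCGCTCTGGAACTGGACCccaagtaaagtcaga
Anxa7, chr14:20467458-20467523, minus strand: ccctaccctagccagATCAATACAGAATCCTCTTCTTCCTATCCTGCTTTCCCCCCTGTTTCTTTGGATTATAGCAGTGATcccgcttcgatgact
Osbpl9, chr4:109107881-109107949, minus strand: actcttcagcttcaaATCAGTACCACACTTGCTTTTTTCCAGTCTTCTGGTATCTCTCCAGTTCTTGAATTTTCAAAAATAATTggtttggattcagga
Ptbp1, chr10:79860117-79860194, plus strand: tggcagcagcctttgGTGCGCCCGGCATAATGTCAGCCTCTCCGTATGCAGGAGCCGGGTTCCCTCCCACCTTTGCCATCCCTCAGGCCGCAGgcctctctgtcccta
Tnrc6a, chr7:123180249-123180395, plus strand: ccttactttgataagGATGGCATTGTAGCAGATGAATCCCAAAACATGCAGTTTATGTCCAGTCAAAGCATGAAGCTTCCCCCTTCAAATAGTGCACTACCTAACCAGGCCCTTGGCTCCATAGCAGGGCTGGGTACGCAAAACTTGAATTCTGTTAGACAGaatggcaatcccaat
Ktn1, chr14:47726471-47726554, plus strand: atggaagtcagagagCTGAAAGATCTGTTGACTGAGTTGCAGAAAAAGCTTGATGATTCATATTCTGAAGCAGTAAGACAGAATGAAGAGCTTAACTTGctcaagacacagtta
Bod1l, chr5:41791797-41791937, minus strand: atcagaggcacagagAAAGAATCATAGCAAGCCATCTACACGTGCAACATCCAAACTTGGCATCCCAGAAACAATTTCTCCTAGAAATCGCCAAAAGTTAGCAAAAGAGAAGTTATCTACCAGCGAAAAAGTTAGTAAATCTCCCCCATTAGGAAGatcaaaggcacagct
Pyrimidines make up 68.2% of the Anxa7 exon, 65.2% of the Osbpl9 exon, 60.3% of the Ptbp1 exon and 56.8% of the Reep6 exon. They make up 49.0% of the Tnrc6a exon, 44.0% of the Bod1l exon and 40.5% of the Ktn1 exon. The median of all 2028 exons is 48.1%. The 7 printed exons are not all that passed the test below in KO preMegE or preCFU-E. Of the others, Rtn4 (44.8%) and Idua (53.2%) rose. Abcg3 (58.9%), Med12l (50.5%), Sun1 (50.0%), Dock10 (46.5%), Eml4 (42.5%) and Smarca2 (40.6%) fell. Whether the pyrimidine share goes with the direction was not tested. The introns beside the exons were not used here.

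The exons are mostly short coding segments. Their median length was 111 nt (quartiles 81 and 153, range 54 to 5970). Of the 2028, 1364 lie in coding sequence, 287 partly so, 227 in untranslated regions and 150 in non-coding transcripts only. Where a skipping transcript is coding across the junction, the exon was read in the frame of the most abundant such transcript. It kept that frame open in 1319 cases and brought an in-frame stop codon in 332, so 79.9% were open. The main including and the main skipping transcript were both annotated as protein-coding for 1411 exons. Just inside and outside the limits stood a Golga2 exon with a mean total of 5.002 TPM and a Tmem209 exon with 4.98. Cipc had a mean PSI of 2.02% and Clta one of 1.99%, and Nelfb had 97.999% against 98.007% for Pfkfb2. There were 48 members of 54 nt, while 38 exons of 51 nt were left out. The limits used no comparison between groups, but an exon that entered only through a group where its PSI differs had to differ: over the 9 WT libraries alone 1901 members have a mean PSI from 2% to 98%, and over the 9 KO libraries 1933. Among exons described below, Reep6, Anxa7, Osbpl9 and Sun1 lie outside the limits over the WT libraries (mean PSI 1.89%, 1.08%, 1.96% and 99.4%), and Rtn4 and Gfm2 over the KO libraries (99.97% and 1.81%). For these 6 a difference in that direction came with the choice of members, so that their counts and p-values are descriptions.

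The median PSI of the members lay near 50% in all 6 groups. The median PSI was 54.1% in WT HSC and 53.3% in KO HSC, 50.2% and 49.1% in preMegE, and 50.4% and 49.7% in preCFU-E. What differed was how many exons lay in the middle: 1333 and 1377 members had a group mean from 10% to 90% in WT and KO HSC, 1024 and 1075 in preMegE, and 954 and 971 in preCFU-E. The pattern was not particular to members. Of 5230 to 5236 cassette exons of all kinds with a value, 3382 and 3511 lay there in HSC. In preMegE it was 2445 and 2587, and in preCFU-E 2207 and 2227. Over the 6 group means a member's highest and lowest PSI lay a median of 18.8 points apart. The distance was under 10 points for 436 members and 30 points or more for 524. In all 6 groups 128 members stayed under 10%, 147 over 90% and 656 from 10% to 90%.

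**Figure D1:**
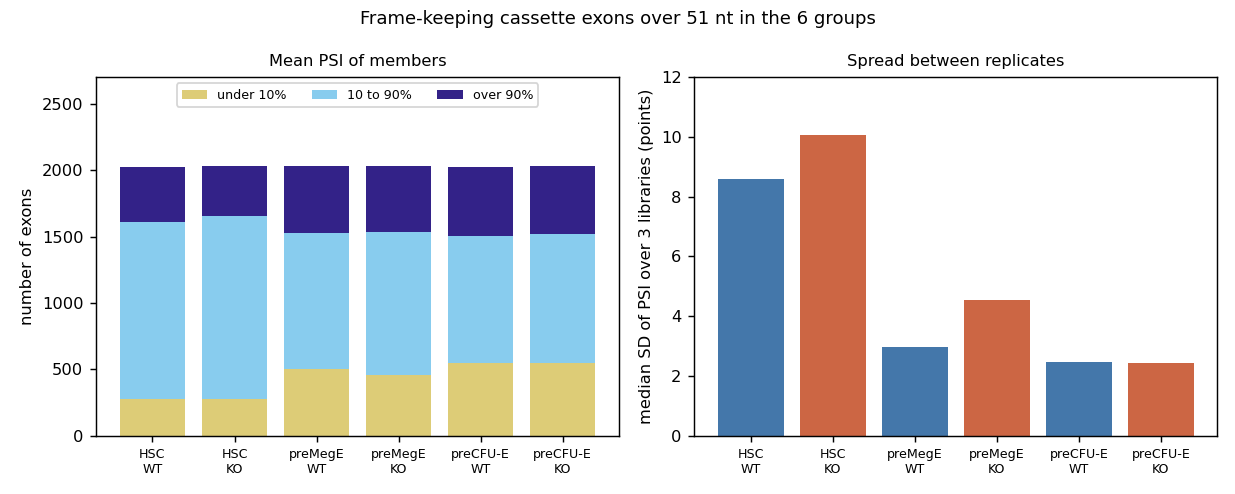
Left, the number of members (vertical axis) with a mean PSI under 10%, from 10% to 90% and over 90% in each of the 6 groups (horizontal axis). Right, the median over members of the SD of PSI between 3 libraries, in percentage points: HSC stand at 8.60 and 10.1, the progenitors between 2.43 and 4.53.

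Replicates of HSC were less alike than those of the progenitors, and this bears on every result that uses them. The median SD of a member between 3 libraries was 8.60 points in WT HSC and 10.1 in KO HSC, but 2.99 and 4.53 in preMegE and 2.47 and 2.43 in preCFU-E. Library 2 of KO HSC stood apart on the second principal component of PSI (66.0, where the other 17 lay from -19.8 to 6.87). Markers of stem cells and of red cells followed the labels: the summed TPM of 7 HSC markers was 486 to 617 in HSC and 30.6 to 143 in the progenitors. That of 9 red cell markers was 107 to 190 in HSC, 1086 to 1466 in preMegE and 3891 to 5839 in preCFU-E, while Procr, an HSC marker, was at 0 in all 6 preCFU-E libraries. A list of 6 markers of megakaryocyte and red cell progenitors did not set preMegE apart: its sum was 517 to 668 TPM in WT HSC, 704 to 754 in KO HSC, and 428 to 653 in WT and 471 to 524 in KO preMegE. In HSC it was higher in every KO library than in every WT library. Platelet markers (3 genes) were lower in KO preMegE (17.2 to 31.0) than in WT preMegE (42.5 to 66.5), and ranged from 19.9 to 152 in KO HSC and from 87.8 to 203 in WT HSC. Granulocyte and monocyte markers (6 genes) ran from 16.5 to 56.7 TPM in KO HSC and from 16.1 to 30.2 in WT HSC. The part of these cells in the results below was not tested. HSC libraries expressed Xist (572 to 810 TPM) and the progenitor libraries Eif2s3y (23.6 to 48.8 TPM), so sex and population cannot be told apart between HSC and the progenitors.

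All tests came from a single limma fit on the logit of PSI over 5236 cassette exons. A call needed both a Benjamini-Hochberg adjusted p under 0.05 and a shift of the mean PSI by 10 points or more. In preCFU-E, the red cell progenitors, loss of Ptbp1 came with 14 called members of 2027 tested, 6 higher and 8 lower in KO. Of all cassette exons tested in preCFU-E 0.612% were called, and of the members 0.691%, so the count is near the background. Higher calls were 0.459% of all exons and 0.296% of members. The exons that rose belong to Reep6, Anxa7, Osbpl9, Ptbp1, Tnrc6a and Idua. Those that fell belong to Ktn1, Bod1l, Eml4, Dock10, Sun1, Abcg3, Med12l and Smarca2. Lower calls were 0.153% of all exons tested: all 8 of them were members, with 0 among 2535 longer exons that break frame and 0 among 667 exons of up to 51 nt. Whether that differs between the kinds of exon was not tested. Of the 14, 10 lie within the PSI limits in WT and in KO libraries alone. The WT and KO libraries did not overlap for 384 members, or 18.9%, against 16.1% of all exons.

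The count moved with the libraries used. The counts under alternatives, here and below, stand without the share of all exons called in the same fits. They therefore do not set members apart from other exons. With preCFU-E libraries alone it was 29, which lacked Ptbp1, Sun1, Eml4, Abcg3 and Med12l of the 14. With weights per library, an alternative chosen after seeing the data, it was 55, which held all 14. It was 5 without WT library 1 or without KO library 3, 7 without KO library 2 and 9 without KO library 1. When each of the 6 libraries was left out in turn, Reep6, Anxa7, Osbpl9, Ktn1 and Smarca2 were called all 6 times, Ptbp1 and Sun1 3 times, and Bod1l, Abcg3 and Med12l 2 times. Tnrc6a, Idua and Eml4 were called 1 time and Dock10 0 times, with changes of 29.2 to 40.5 points for Tnrc6a and -27.4 to -23.8 points for Dock10 over all alternatives.

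Reep6, which helps to shape the endoplasmic reticulum, gained an exon of 81 nt (27 codons) that WT cells nearly always skipped. Its PSI was 3.28%, 1.30% and 4.64% in WT preCFU-E and 92.1%, 80.5% and 88.2% in KO preCFU-E. No WT library came near a KO library, and the mean rose by 83.9 points, from 3.07% ± 1.68 to 86.9% ± 5.89 (SD, n = 3; limma adjusted p = 0.000423). With a mean of 1.89% over the WT libraries, this exon is a member through its KO libraries, so a rise was fixed by the choice. Transcripts that hold the exon went from 0.718 ± 0.434 to 16.6 ± 3.95 TPM, and those that skip it from 22.7 ± 3.23 to 2.51 ± 1.13 TPM. The sum of both stayed of the same order while their shares changed places. In preMegE the PSI was 2.74%, 1.61% and 2.44% in WT and 43.1%, 37.2% and 56.0% in KO, a rise of 43.2 points (adjusted p = 0.0347). In HSC it was 0.966%, 0% and 0% in WT and 6.11%, 53.1% and 5.82% in KO (adjusted p = 0.0277). The HSC rise rests on library 2 of KO HSC: it was 21.3 points with it and 5.64 points at the lowest when 1 library was left out, and it was no longer called without that library or without WT library 2 or 3.

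Anxa7 encodes an annexin, a protein that binds membranes when calcium rises. Its exon of 66 nt (22 codons) had a PSI of 0% in all 3 WT HSC libraries and of 17.2%, 9.05% and 19.1% in KO HSC. In preMegE it was 0.563%, 4.73% and 0.500% in WT and 52.5%, 24.5% and 21.5% in KO. In preCFU-E it was 1.85%, 0.392% and 1.64% in WT and 69.4%, 62.4% and 63.7% in KO. WT and KO libraries were apart in all 3 populations, with rises of 15.1, 30.9 and 63.9 points (adjusted p 0.00219, 0.00886 and 0.000118). This exon too (1.08% over the WT libraries) is a member through its KO libraries. The 33.0 points between the rises in preCFU-E and preMegE did not pass the test (adjusted p = 1), nor did the 40.7 points for Reep6 (adjusted p = 1).

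Osbpl9, a lipid-binding protein of the oxysterol-binding family, holds an exon of 69 nt (23 codons). The PSI was 0% in every WT HSC library and 35.3%, 11.6% and 58.2% in KO HSC. It was 0%, 9% and 3.76% in WT preMegE and 60.8%, 59.7% and 57.2% in KO preMegE. It was 4.91%, 0% and 0% in WT preCFU-E and 57.6%, 56.9% and 63.8% in KO preCFU-E. The rises were 35.0, 55.0 and 57.8 points (adjusted p 0.00464, 0.0298 and 0.00357), and as for Reep6 and Anxa7 a rise was fixed by the choice (1.96% over the WT libraries). The 2 progenitors reached nearly the same level in KO, and only the HSC libraries were scattered.

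Ktn1 went the other way. It encodes kinectin, an anchor for the motor protein kinesin on the endoplasmic reticulum, and its exon of 84 nt (28 codons) is one of several cassettes near the end of the gene. The PSI was 74.3%, 68.8% and 70.6% in WT HSC and 39.7%, 31.9% and 41.0% in KO HSC. It was 57.2%, 54.9% and 47.9% in WT preMegE and 20.3%, 23.5% and 12.3% in KO preMegE. It was 54.3%, 56.5% and 48.8% in WT preCFU-E and 16.2%, 11% and 11.8% in KO preCFU-E. The change was -33.7, -34.7 and -40.2 points (adjusted p 0.0184, 0.0319 and 0.00350). Differences between these falls were not called, which does not show them to be equal. Reep6, Anxa7, Osbpl9 and Ktn1 are the 4 members called in the same direction in all 3 populations, which share no library but do share the estimate of spread. For Ktn1 alone of the 4 the limits on PSI did not fix the direction. In HSC, all 4 lost the call when only HSC libraries entered the fit (adjusted p 0.823, 0.227, 0.277 and 0.763) and with weights per library. With preMegE libraries alone, Anxa7, Osbpl9 and Ktn1 lost the call in preMegE and Reep6 kept it. With preCFU-E libraries alone, all 4 kept the call in preCFU-E.

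**Figure D2:**
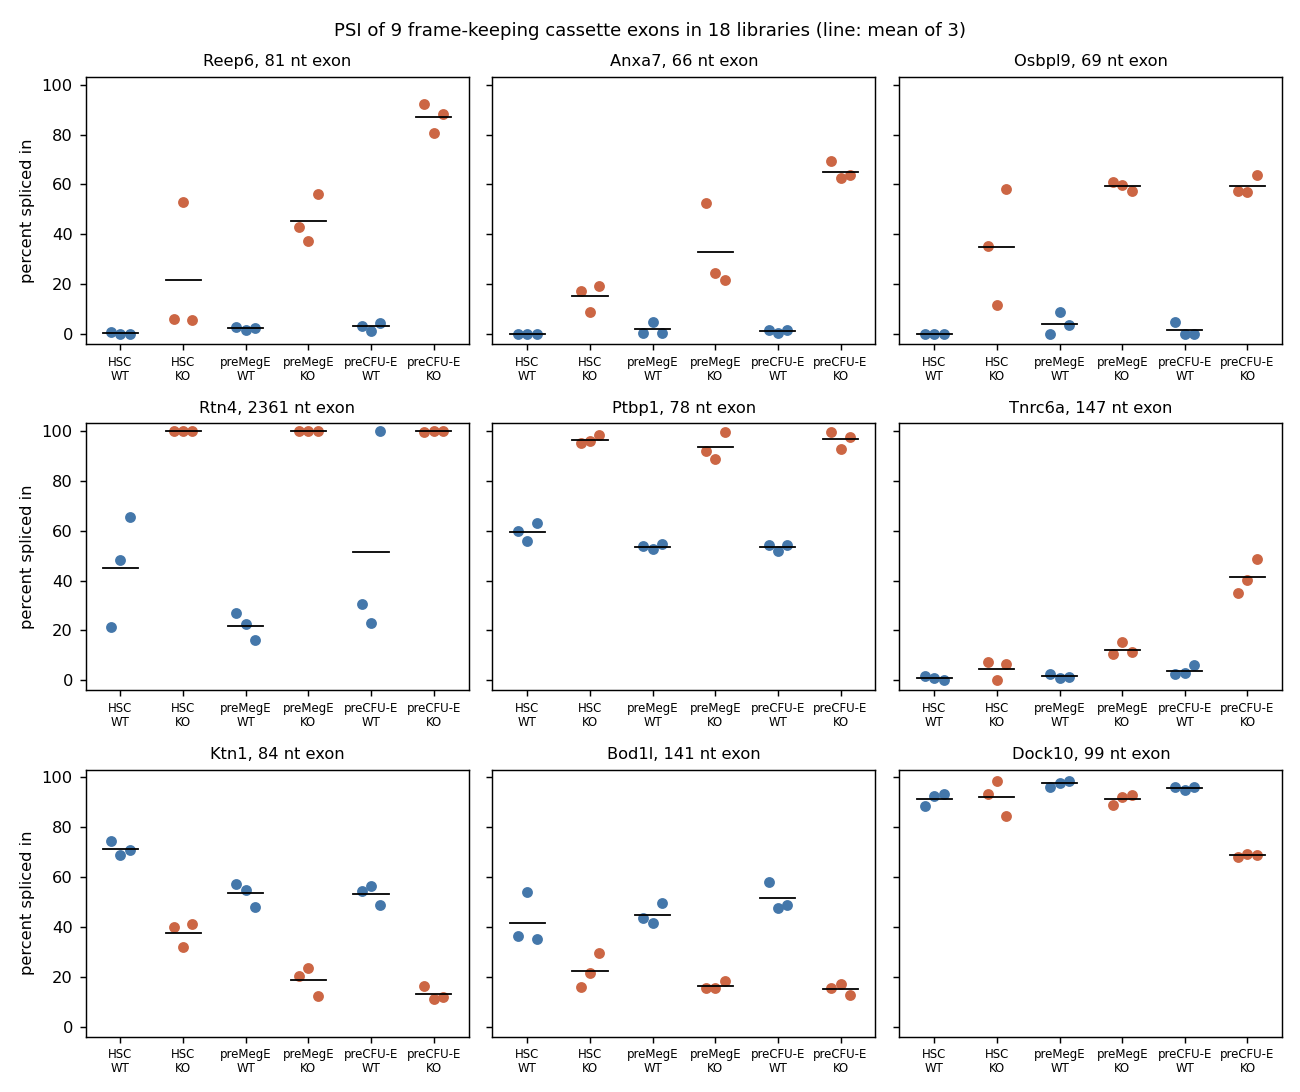
PSI in percent (vertical axis) of 9 exons in the 6 groups (horizontal axis), with a point for each library (blue WT, orange KO) and a line at the mean of 3. In Reep6, Anxa7 and Osbpl9 the WT libraries lie at or under 9%, while in Ktn1 and Bod1l the KO libraries lie under the WT libraries in every population.

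Ptbp1 itself holds a member, an exon of 78 nt (26 codons) in the linker between RNA-binding domains. Its PSI was 59.7%, 56.1% and 63.2% in WT HSC and 95.0%, 95.9% and 98.2% in KO HSC. It was 53.7%, 52.5% and 54.7% in WT preMegE and 91.8%, 88.7% and 99.7% in KO. It was 54.5%, 51.7% and 54.1% in WT preCFU-E and 99.7%, 92.7% and 97.7% in KO. The rise was 36.7 points in HSC (adjusted p = 0.0174), 39.8 points in preMegE (adjusted p = 0.0612, not called) and 43.3 points in preCFU-E (adjusted p = 0.0128). The main transcript with the exon is annotated as a retained intron. Over protein-coding transcripts alone the change was -7.17 points in HSC (adjusted p = 0.83), the opposite direction, and 45.8 points in preCFU-E (adjusted p = 0.457). This is the targeted gene, so that the value describes what is left of its RNA: including transcripts went from 215 ± 17.6 to 69.3 ± 5.91 TPM in preCFU-E and skipping transcripts from 188 ± 21.5 to 2.40 ± 2.56 TPM.

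Tnrc6a, a scaffold of microRNA-guided silencing, had its largest change in preCFU-E. The PSI of its exon of 147 nt (49 codons) was 2.49%, 2.99% and 6.22% in WT and 35.0%, 40.1% and 48.7% in KO preCFU-E, a rise of 37.3 points (adjusted p = 0.0220). In preMegE it was 2.48%, 1.09% and 1.34% in WT and 10.4%, 15.3% and 11.2% in KO, without overlap and without a call (10.7 points, adjusted p = 0.382). In HSC the groups overlapped. Idua, a lysosomal enzyme that breaks down glycosaminoglycans, held its exon of 141 nt at 69.4%, 82.7% and 63.2% in WT preCFU-E and at 100% in all 3 KO libraries (adjusted p = 0.0220). In KO preMegE the Idua libraries stood at 100%, 100% and 83.6%, where WT had 60.4%, 83.7% and 75.9%: there the groups overlapped.

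Bod1l, which protects stalled replication forks, lost an exon of 141 nt (47 codons). Its PSI was 57.9%, 47.7% and 48.8% in WT and 15.7%, 17.3% and 12.6% in KO preCFU-E, a change of -36.3 points (adjusted p = 0.0171). In preMegE it was 43.6%, 41.6% and 49.6% against 15.4%, 15.5% and 18.3%, and in HSC 36.2%, 53.8% and 35.0% against 15.9%, 21.6% and 29.5%. All 3 populations were free of overlap, but only preCFU-E passed the test (adjusted p 0.113 in preMegE and 0.158 in HSC).

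Dock10, Eml4 and Sun1 held exons that WT cells nearly always included. The Dock10 exon of 99 nt was at 96.2%, 94.9% and 96.0% in WT and 68.1%, 69.3% and 68.7% in KO preCFU-E (-27.0 points, adjusted p = 0.0258). Eml4 binds microtubules, and its exon of 174 nt was at 96.1%, 90.9% and 97.4% in WT and 70.3%, 63.7% and 59.3% in KO preCFU-E (-30.4 points, adjusted p = 0.0284). Sun1, which links the nuclear envelope to the cytoskeleton, had its exon of 192 nt at 99.4%, 99.2% and 98.3% in WT and 91.7%, 89.7% and 78.2% in KO preCFU-E (-12.4 points, adjusted p = 0.0152), a fall that the upper limit on PSI fixed, since its mean over the WT libraries is 99.4%. In preMegE each of the 3 was lower in every KO library than in every WT library, with changes of -6.39, -6.45 and -5.72 points in that order, without passing the test (adjusted p 0.852, 1 and 0.157). In HSC none of the 3 was called.

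The 3 other calls in preCFU-E rest on WT totals under 1 TPM. The Smarca2 exon went from 100% in the 2 WT libraries that had a value to 0% in all 3 KO libraries, on 0.146 ± 0.138 TPM of including transcripts in WT. Abcg3 was at 0.0409 ± 0.0130 TPM of including transcripts in WT and Med12l at 0.0719 ± 0.0344 TPM. With at least 1 TPM in every library compared, 11 members were called in preCFU-E.

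In preMegE, 5 members of 2028 were called, 4 higher and 1 lower, or 0.247% against 0.267% of all cassette exons (0.229% higher and 0.0382% lower). WT and KO libraries were apart for 312 members, 15.4% against 13.7% of all exons. They were Reep6, Anxa7, Osbpl9, Rtn4 and Ktn1, and 4 of the 5 were also called in preCFU-E. Only Ktn1 lies within the PSI limits in WT and in KO libraries alone. Rtn4 encodes a reticulon of the endoplasmic reticulum, and its member, an exon of 2361 nt (787 codons), is the part that makes the long form Nogo-A. The PSI was 26.9%, 22.6% and 16% in WT preMegE and 100% in all 3 KO libraries (78.2 points, adjusted p = 0.0319). It was 21.4%, 48.4% and 65.5% in WT HSC and again 100% in every KO library (54.9 points, adjusted p = 0.0246). In preCFU-E the WT libraries had 30.6%, 23.2% and 100% and the KO libraries 99.7%, 100% and 100%, so the groups overlapped through WT library 3 (adjusted p = 0.288). Skipping transcripts were at 50.8 ± 14.0 TPM in WT preMegE and at 0 in all 3 KO libraries, while including transcripts were at 13.7 ± 2.98 and 54.2 ± 9.56 TPM. These are sums over annotated transcripts as the quantifier divided the reads, and a value of exactly 100% means that no read was given to a skipping transcript. The number of calls in preMegE was 22 with weights per library, and it was 0 without WT library 1 or 3, 1 without KO library 1 or 2 and 2 without WT library 2. Reep6, Rtn4 and Ktn1 were called in 0 of these 6 fits, Osbpl9 in 1 and Anxa7 in 4.

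**Figure D3:**
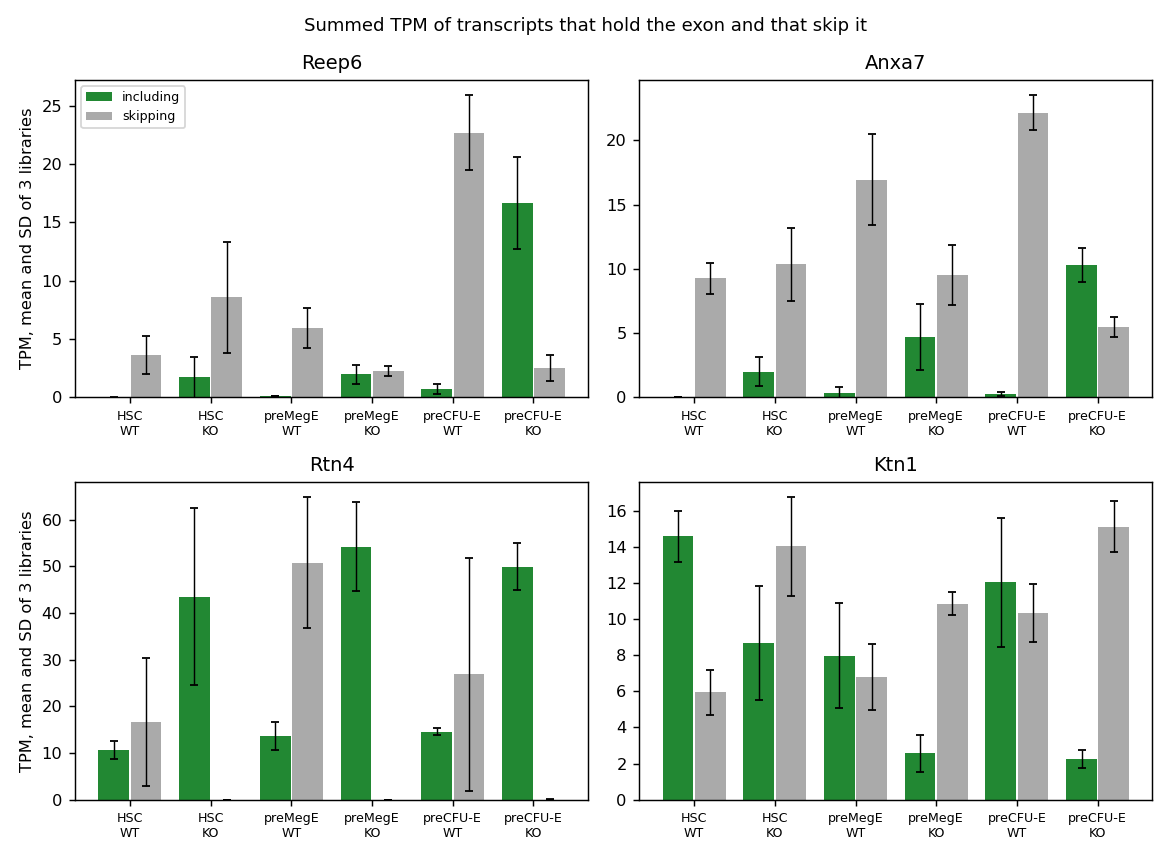
Summed TPM (vertical axis, mean and SD of 3 libraries) of transcripts that hold the exon (green) and that skip it (grey) in the 6 groups, for 4 exons. Reep6 and Anxa7 pass from mostly skipping to mostly including transcripts in KO preCFU-E and Rtn4 in KO preMegE, and Ktn1 does the reverse in preCFU-E, 12 to 2.26 TPM of including transcripts.

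**Figure D4:**
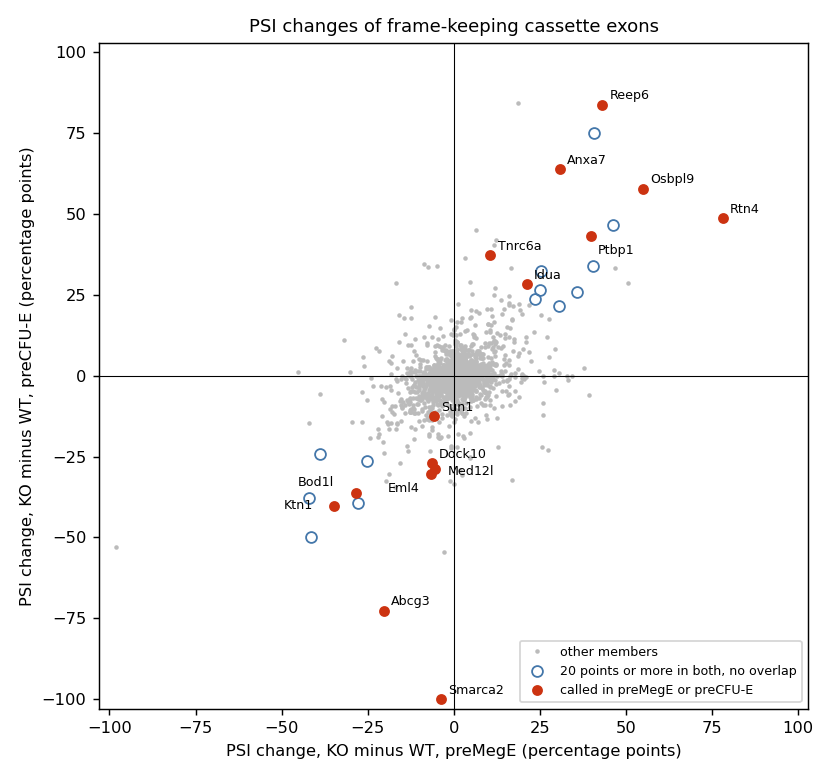
Change of mean PSI, KO minus WT, in preMegE (horizontal axis) and preCFU-E (vertical axis), in percentage points, with a point for each member. Filled red points are called in at least 1 of the 2 populations, and open circles are the other members of the 19 that changed by 20 points or more in the same direction in both without overlap (0.937% of members, against 0.765% of all exons).

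In KO HSC, 45 members of 2025 were called, 28 higher and 17 lower, or 2.22% against 1.99% of all cassette exons (1.17% higher and 0.822% lower). WT and KO libraries were apart for 203 members of 2025, against 10.3% of all exons. The number rests on a spread shared with the tighter progenitor libraries. With HSC libraries alone it was 1, an exon outside the 45, and with weights per library it was 4, of which 3 were among the 45. It was 69 without WT library 1 and 79 without KO library 3. Of the 45, 32 lie within the PSI limits in WT and in KO libraries alone. The largest rises that were free of overlap were in Pex2, Taf6l, Rtn4, Gm5148, P2rx4 and Zmym3. Pex2, a ubiquitin ligase of the peroxisome membrane, went from 6.31%, 29.3% and 42.0% to 100% in all 3 KO libraries (74.2 points, adjusted p = 0.000138), on 0.958 ± 0.630 TPM in KO. P2rx4, a channel opened by ATP, went from 23.7%, 42.8% and 27.8% to 66.1%, 95.0% and 79.2% (48.6 points, adjusted p = 0.0141) and stood at 28.7% to 38.6% in KO preMegE, where WT had 33.6% to 42.9%. Taf6l, a part of histone acetylase complexes, went from 30.1%, 37.9% and 7.52% to 100%, 100% and 86.2% (70.2 points, adjusted p = 0.0475), a call kept in 1 of 6 fits that left out a library, and Rtn4 was kept in 2. With PSI from estimated reads the Zmym3 change was 13.7 points in place of 47.5, without a call.

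The largest falls in KO HSC were in Immt, Ppp2r2d, Ddias, Ndufv3 and Gfm2. Immt encodes the core protein of the contact sites of mitochondrial cristae. Its exon of 138 nt was at 91.3%, 100% and 98% in WT HSC and 58.6%, 81.2% and 12.9% in KO HSC (-45.6 points, adjusted p = 0.0129), with another exon of 105 nt that ends at the same splice site at -44.6 points (adjusted p = 0.0206). Without KO library 3 these were -26.6 and -25.7 points. With PSI from estimated reads the changes in Ppp2r2d, Ddias and Gfm2 were -13.5, -17.4 and -7.35 points, in place of -45.1, -42.5 and -36.2. Ndufv3 makes an accessory subunit of respiratory complex I, with a large exon of 1092 nt (364 codons). Its PSI was 69.1%, 46.0% and 42.5% in WT HSC and 20.1%, 10.2% and 14.7% in KO HSC (-37.5 points, adjusted p = 0.00902). In preMegE the Ndufv3 exon was at 24.0%, 28.8% and 21.6% in WT and 14.9%, 13.4% and 11.4% in KO. In preCFU-E it was at 20.2%, 16.2% and 15.9% in WT and 9.47%, 6.38% and 6.02% in KO. Each KO library was below each WT library in all 3 populations, although only HSC passed the test (adjusted p 1 in preMegE and 0.617 in preCFU-E). Of the 28 members called higher in HSC, 5 were higher by at least 10 points without overlap in preMegE and 1 lower, and 6 higher and 0 lower in preCFU-E. Of the 17 called lower, 6 and 4 were lower in that way and 1 and 0 higher. Among all members, 80 were higher and 69 lower in that way in preMegE (3.73% and 2.69% of all exons), 67 and 89 in preCFU-E (3.29% and 2.95%), and 92 and 65 in HSC (4.51% and 3.33%). Of the members called in HSC, the 5 higher in that way in preMegE include Reep6, Anxa7, Osbpl9 and Rtn4. The 6 higher in preCFU-E include Reep6, Anxa7 and Osbpl9, and the 6 lower in preMegE include Gfm2. For these exons the direction came with the choice of members, so their recurrence is a description.

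Known targets of PTB proteins were looked up from a list of 39 genes, 14 of which hold 26 members. In HSC, Picalm and Ptbp1 rose and Ktn1 fell, in preMegE Ktn1 fell, and in preCFU-E Ptbp1 rose and Ktn1 fell. Of all exons, 1.99%, 0.267% and 0.612% were called in these populations. Ptbp1 is the targeted gene, so its exon describes what is left of its RNA and not the response of a target. The median change of the 26 was 0.047, 0.0778 and 0.172 points, beside 0.214, 0.155 and 0 points over all exons. Picalm, an adaptor of clathrin coats, had its exon of 150 nt at 55.1%, 61.4% and 58.4% in WT preCFU-E and at 80.8%, 77.4% and 78.2% in KO, without overlap and without a call (20.5 points, adjusted p = 0.975). In HSC it rose from 34.3%, 57.4% and 56.4% to 70.0%, 94.9% and 84.1% (33.6 points, adjusted p = 0.0475), a call kept in 2 of 6 fits that left out a library.

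For KO against WT, where 1.99%, 0.267% and 0.612% of all exons were called in HSC, preMegE and preCFU-E, few members of the other lists were called. Of 30 members in 24 genes of splicing regulators, the exon of Ptbp1, the targeted gene, was the 1 called, in HSC and preCFU-E. Of 54 members in 28 cytoskeleton genes the Ktn1 exon was the 1 called, lower in each population. Of 46 members in 27 genes of membrane trafficking, Golga2 and Picalm rose in HSC, and 0 were called in the progenitors. Of 88 members in 48 genes of chromatin and transcription, Gtf2i and Mbd1 fell in HSC and Smarca2 in preCFU-E. None of 14 members in 10 erythroid and megakaryocytic genes was called for KO against WT in limma. Median changes of these lists lay between -0.357 and 2.16 points in the 3 populations, where all exons had 0 to 0.214. Between WT HSC and WT preMegE, where 9.73% of all exons were called, 4 members of the splicing regulators were lower in preMegE (Hnrnpf, Luc7l2, Tra2a and Tra2b). In the same step 2 cytoskeleton members were higher and 2 lower (in Epb41, Epb41l2 and Svil), 4 and 2 of membrane trafficking (Ap1b1, Gga3, Git2, Lrp8, Numb and Tsc2), 0 and 4 of chromatin and transcription (Bclaf1, Bptf, Brd8 and Gtf2i), 1 and 1 of the erythroid and megakaryocytic genes (both in Epb41) and 3 and 1 of the known PTB targets (Epb41, Epb41l2 and Numb).

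The 15 members called in preMegE or preCFU-E, 7 higher and 8 lower, all lie in coding sequence and leave the skipping transcript's frame open. The limits on TPM and PSI did not use this feature. Of all 2028 members 1319 leave the frame open, or 79.9% of those that could be read in a coding frame. No such share was computed over all cassette exons. Among the 15, Smarca2, Abcg3 and Med12l rest on totals under 1 TPM in WT preCFU-E. The 7 that rose had a median of 56.8% pyrimidines (44.8% to 68.2%) and the 8 that fell 45.2% (40.5% to 58.9%), beside 48.1% for all members. Their median lengths were 81 and 102 nt, beside 111 nt. These are descriptions of few exons, with no test. Of the 45 called in HSC, 25 left the frame open and 10 brought a stop codon.

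Between WT HSC and WT preMegE, 167 members of 2025 were called, 65 higher and 102 lower in preMegE, or 8.25% against 9.73% of all exons (3.97% higher and 5.75% lower). Libraries of the groups were apart for 677 members, 33.4% against 32.7% of all exons. Among those lower, Ptpn6, the phosphatase SHP-1 that dampens cytokine signals, went from 100% in all 3 WT HSC libraries to 19.0%, 8.03% and 17.8% in WT preMegE (-85.1 points, adjusted p = 9.69e-08). KO HSC were also at 100% and KO preMegE at 30.5%, 23.7% and 19.5%. Ccm2, a scaffold of a kinase pathway, went from 98%, 95.9% and 63.7% to 28.3%, 22.4% and 17.4% (-63.1 points, adjusted p = 0.00240). Tbl1xr1, part of a corepressor complex, and Hmces, which shields abasic sites in DNA, fell by 94.6 and 66.2 points (adjusted p 0.00410 and 0.00835), Hmces by 40.7 points with PSI from estimated reads. The Tbl1xr1 fall rests on 1.84 ± 1.19 TPM of including transcripts in WT HSC, and KO HSC stood at no value, 6.20% and 100%. For Ptpn6, including transcripts in WT HSC were at 2.85 ± 1.12 TPM. Abhd14b and 4933431E20Rik complete the 6 largest falls, and Abhd14b was called in 0 of 6 fits that left out a library.

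Among exons that were higher in preMegE, Commd7 went from 3.67%, 4.49% and 1.40% in WT HSC to 53.7%, 65.9% and 71.7% in WT preMegE (60.6 points, adjusted p = 3.27e-06). Ggps1, which makes a lipid used to anchor small GTPases, went from 0% in all 3 WT HSC libraries to 60.9%, 48.9% and 55.7% (55.2 points, adjusted p = 3.14e-05). Both exons lie in untranslated sequence of the transcript that holds them. The Commd7 exon is skipped within the coding sequence of a skipping transcript, in whose frame it would bring a stop codon. With PSI from estimated reads the rises were 37.1 points for Commd7 and 16.6 points for Ggps1, still called. Sirt1, a deacetylase that uses NAD, held its coding exon of 552 nt (184 codons) at 51%, 41.4% and 40.4% in WT HSC and 95.5%, 97.7% and 100% in WT preMegE (53.5 points, adjusted p = 0.000811). The KO libraries moved likewise, from 52.5%, 28.3% and 72.3% to 96.2%, 97.8% and 93.3%. Mfsd13a, 0610010K14Rik and Mettl27 were the other 3 of the 6 largest rises, with Mettl27 called in 0 and Mfsd13a in 2 of 6 such fits. The count was 73 with the libraries of WT and KO HSC and preMegE alone, 256 when KO HSC library 2 was left out of the spread, and 106, 83 and 68 without WT preMegE library 1, 2 or 3.

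From WT preMegE to WT preCFU-E, 3 members of 2027 were called (0.148%, against 0.0956% of all exons): Smarca2 higher (0.0382% of all exons), Cc2d2b and Tcf7l2 lower (0.0574%). Libraries were apart for 403 members, 19.9% against 18.5% of all exons. All 3 had totals under 1 TPM in preCFU-E, and 0 were called with at least 1 TPM in every library compared. Without that limit 80 members had an unadjusted p under 0.05, 3.95% against 3.69% of all exons. The KO effect differed between preMegE and HSC for 3 members of 2025 (0.148%, against 0.268%): Pex2, Zmym3 and Ppp2r2d. Between preCFU-E and preMegE limma called 0 members (0.0383% of all exons), 1 with weights per library, and 44 members had an unadjusted p under 0.05, 2.17% against 2.22% of all exons.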

How the data were processed

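RNA was sequenced from 18 libraries, 3 in each of 6 groups. Per the submitters' processing notes, Salmon 0.12.0 and the builds mm10 and GRCm38.p6 were used. The authors deposited, for each transcript and library, an estimated count of reads and a TPM value. Salmon divides reads that fit several transcripts, so PSI rests on that division and not on counted junction reads, and 16.8% of the members' library values were exactly 0 or 100. Of 136288 transcripts, 136176 matched GENCODE M21 by identifier. Depth was 15956408 to 29226287 estimated reads, and the median total of a member was 14.2 TPM. Labels do not say that replicates are separate animals, so p-values measure the spread between these libraries. Estimated reads of replicates varied more than counting alone would give (chi-square per degree of freedom 16.37 to 84.67). That variation includes how the quantifier divided reads between transcripts.

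Of 16704 annotated cassette exons 6396 were longer than 51 nt and kept frame. Of those, 3651 fell below 5 TPM and 717 outside the PSI limits. The members form 2025 sets of shared transcripts. Some transcripts hold several members, 384 members rest on 1 including and 1 skipping transcript, 37 lack a value in some library and 63 have a group total under 1 TPM. Logit PSI (offset 0.01) was fitted with limma 3.58.1 in R 4.3.3 (robust empirical Bayes, 6 group means, 12 residual degrees of freedom) over all 5236 exons, with Benjamini-Hochberg adjustment over all of them. The script was tested on simulated data. Alternatives changed the offset, the scale, the TPM limit, the transcripts, the libraries and the weights.

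Exons named are, among calls without overlap, the 10 largest rises and falls in preCFU-E, 8 in preMegE, and 6 in HSC and in each WT step, the 4 largest differences of KO effects, calls in all 3 populations and calls among known PTB targets. The members and lists were chosen with earlier results of these data known. Pyrimidine shares were computed with Python 3.11.15 from GENCODE transcripts.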

Additional observations from a re-analysis of the deposited data

Results flagged for a closer look

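For 3 members the KO effect differed between preMegE and HSC in the limma test of the difference itself. The Zmym3 exon (chromosome X, 255 nt), in a gene of a zinc finger protein of chromatin complexes, differed by -50.5 points (adjusted p = 0.0302): its PSI was 49.2%, 30% and 73.1% in WT HSC and 94.8%, 100% and 100% in KO HSC, but 52.5%, 47.6% and 55.0% in WT preMegE and 47.8%, 42.1% and 56.3% in KO preMegE. With PSI from estimated reads the Zmym3 difference was -11.9 points (adjusted p = 0.524), and over protein-coding transcripts -8.76 points (adjusted p = 0.886).

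The Pex2 exon (108 nt, untranslated) differed by -56.5 points (adjusted p = 0.0226), with PSI in preMegE of 30.4%, 14.6% and 25.4% in WT and 66.6%, 12.6% and 44.3% in KO, and with totals in KO HSC under 1 TPM. The Ppp2r2d exon (207 nt, partly coding), in a gene of a regulatory subunit of protein phosphatase 2A, differed by 58.5 points (adjusted p = 0.0302): its PSI was 62.5%, 24.0% and 55.0% in WT HSC and 3.67%, 0% and 2.76% in KO HSC, against 0%, 4.94% and 4.59% in WT and 20.5%, 15.1% and 14.2% in KO preMegE. With PSI from estimated reads the Ppp2r2d difference was 15.9 points (adjusted p = 0.00443). With the libraries of HSC and preMegE alone none of the 3 was called (adjusted p 0.162, 0.131 and 0.0770).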

How the results depend on the processing

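Of 60 calls of named exons, 59 kept their direction under every alternative run, and the exception was the Ptbp1 exon in HSC with protein-coding transcripts only (-7.17 points). For KO against WT in HSC (45 members), 74 were called on untransformed PSI, 27 with protein-coding transcripts only, 1 with the libraries of the populations compared only and 4 with array weights, and 50 to 79 when 1 library was left out. In preMegE (5), 9 were called with an offset of 0.05, 10 on untransformed PSI, 22 with array weights and 0 to 5 with 1 library left out. In preCFU-E (14), it was 29 with its own libraries, 55 with array weights and 5 to 13 with 1 left out. For WT preMegE against HSC (167), it was 73 with the libraries compared only, 256 without HSC KO library 2 in the spread and 68 to 174 with 1 left out. For WT preCFU-E against preMegE (3), it was 6 on untransformed PSI, 1 at 10 TPM or more, 7 with the libraries compared only, 32 with array weights, 0 with 1 TPM in every library and 0 to 4 with 1 left out. For the difference of KO effects between preMegE and HSC (3), it was 5 untransformed, 1 at 10 TPM, 9 at 1 TPM, 1 with protein-coding transcripts, 0 with the libraries compared only, 1 with array weights and 0 to 16 with 1 left out. Between preCFU-E and preMegE (0), it was 3 at 1 TPM, 1 with array weights and 0 to 1 with 1 left out. Where a group was left with 2 libraries, the spread came from all groups. Array weights, the spread without HSC KO library 2 and the limit of 1 TPM in every library were chosen after seeing the data. The counts under alternatives stand without the share of all exons called in the same fits, so they do not set members apart from other exons. The causes were not tested.

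Same-numbered WT and KO libraries showed no shared deviation of PSI (correlations from -0.0431 to 0.0257). The labels do not say whether the numbers pair them, and such correlations cannot exclude it, since a small shared effect could be lost in the noise of PSI. With the replicate number as a block, 20 members were called in HSC, 0 in preMegE, 3 in preCFU-E, 15 for WT preMegE against HSC, 1 for WT preCFU-E against preMegE and 0 for both differences of KO effects.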

Other observations

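Beyond the calls, 19 members in 16 genes changed by at least 20 points in the same direction in both progenitors with no overlap of WT and KO libraries in either, 12 higher and 7 lower. That is 0.937% of members, against 0.765% of all cassette exons. The limit was chosen after the values were seen, and 6 of the 19 were called in preMegE or preCFU-E. With array weights, also chosen after seeing the data, 15 of the 19 were called in preCFU-E and 11 in preMegE. The 19 were picked for large changes in these same libraries, so these counts are descriptions only. Exoc7, a subunit of the exocyst that tethers vesicles, had its exon of 93 nt at 1.12%, 0% and 4.40% in WT preMegE and 33.2%, 56.0% and 38.5% in KO. In preCFU-E the Exoc7 exon was at 1.08%, 2.63% and 1.26% in WT and 77.1%, 75.4% and 77.7% in KO (limma adjusted p = 0.262, and 0.000403 with array weights). Dennd1a, an activator of Rab35, held an exon of 129 nt at 3.77%, 5.76% and 0% in WT preCFU-E and 44.9%, 46.8% and 58.2% in KO. Sec31a, a coat protein of vesicles leaving the endoplasmic reticulum, went from a mean of 46.1% ± 2.02 to 69.7% ± 0.685 in preCFU-E.

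Nfya, the subunit of the transcription factor NF-Y that contacts its DNA site, holds 2 overlapping members of 84 and 87 nt. The Nfya exon of 87 nt was at 2.69%, 13.1% and 2.13% in WT preCFU-E and 44.2%, 34.3% and 41.2% in KO, and at 28.8%, 30.3% and 33.5% against 80.0%, 64.6% and 69.7% in preMegE. Akap13, an anchor of protein kinase A, had an exon of 66 nt at 51.3%, 48.8% and 50.6% in WT preMegE and 75.8%, 73.9% and 75.9% in KO. In preCFU-E the Akap13 exon was at 53.2%, 57.8% and 39.1% in WT and 76.5%, 75.7% and 77.4% in KO. Among those lower, 3 overlapping Immt exons were at 15% to 29.7% over the KO preCFU-E libraries and 47.3% to 85.9% over the WT ones. Scarb1, the receptor for high-density lipoprotein, had an exon of 129 nt at 91.0%, 91.9% and 95.6% in WT preCFU-E and 70.4%, 68.8% and 66.9% in KO, and it brings a stop codon into the skipping transcript's frame.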
